A study of Mus musculus with 12 samples.

Results

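Transforming growth factor β (TGF-β) signalling and activated fibroblast genes were followed in tongue tissue of mice given a carcinogen. The 9 genes were set by name, as the ligands Tgfb1, Tgfb2 and Tgfb3, the receptors Tgfbr1 and Tgfbr2, and the stromal targets Acta2, Postn, Fn1 and Tnc. They are 9 of the 32498 rows with a gene name in the deposited tables, and all 9 had reads in every library and were among the 16847 genes tested. RNA was sequenced from bulk tongue tissue, labelled as tumor and tumor-associated, of 6 C57BL/6 mice given vehicle and 6 given gallic acid (GA), a plant polyphenol. Both groups, the controls included, drank the mutagen 4-nitroquinoline 1-oxide (4NQO) at 100 µg/mL for 16 weeks from an age of about 5 weeks at purchase. From week 4, GA was given by gavage 5 times per week at 100 mg/kg, and the vehicle group received the methyl cellulose and Tween-20 carrier on the same schedule. No group without 4NQO was analysed here. The labels name no animals, so each library was taken as 1 mouse, and p-values cover the spread between these libraries only.

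TGF-β ligands are secreted in a latent form and released by integrins, proteases and thrombospondin. They bind TGFBR2, which recruits and phosphorylates TGFBR1, and this complex activates SMAD2 and SMAD3 to enter the nucleus with SMAD4. Fibroblasts under this signal take on contractile actin and lay down collagens, fibronectin, periostin and tenascin-C, and in oral tumors such cells make up much of the stroma. Acta2 is also the actin of vascular smooth muscle, and Fn1 is also made by macrophages, so neither gene by itself names a fibroblast.

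Library totals lay between 18040152 and 25192491 reads. Reads on Y-linked genes, a sign of male tissue, were present in vehicle libraries 1 to 4 and GA library 1. The 7 libraries without such reads were vehicle libraries 5 and 6 and GA libraries 2 to 6. The labels give no sex, but by these reads it was uneven between the groups. Differences with GA and with sex can therefore not be fully told apart. The gland lipase Lipf was at 8079 to 26220 FPKM in vehicle libraries 3 and 5 and GA library 2, and under 1 FPKM in the other 9. Markers of the labelled tissue were present throughout, with 12 tongue epithelium markers summing to 18372 to 50066 FPKM per library.

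The sequence upstream of 3 stromal targets is shown because Tnc and Postn followed Col1a1 most closely and Acta2 spread most widely after Tnc. Each run holds the 250 bases before a RefSeq transcription start (GRCm38.p6, the most downstream start where RefSeq lists several), read 5′ to 3′ on the strand of the gene. Acta2 lies on the minus strand at chr19:34255374-34255623, Postn on the plus strand at chr3:54360857-54361106, and Tnc on the minus strand at chr4:64046937-64047186. Capitals mark matches, on either strand, to CAGAC, the short element that SMAD proteins bind, to CATTCC, the element of TEAD factors, or to the CArG box of serum response factor with 1 G or C allowed among its 6 inner A or T bases.
Acta2: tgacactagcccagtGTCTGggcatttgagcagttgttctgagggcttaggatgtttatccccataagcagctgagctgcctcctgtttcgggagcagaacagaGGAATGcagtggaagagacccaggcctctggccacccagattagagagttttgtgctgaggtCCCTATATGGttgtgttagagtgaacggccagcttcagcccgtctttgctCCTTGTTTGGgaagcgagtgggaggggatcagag
Postn: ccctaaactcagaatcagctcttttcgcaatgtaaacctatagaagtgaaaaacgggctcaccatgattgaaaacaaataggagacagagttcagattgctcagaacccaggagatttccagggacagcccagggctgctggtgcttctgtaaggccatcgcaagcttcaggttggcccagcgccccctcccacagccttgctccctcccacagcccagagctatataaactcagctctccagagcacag
Tnc: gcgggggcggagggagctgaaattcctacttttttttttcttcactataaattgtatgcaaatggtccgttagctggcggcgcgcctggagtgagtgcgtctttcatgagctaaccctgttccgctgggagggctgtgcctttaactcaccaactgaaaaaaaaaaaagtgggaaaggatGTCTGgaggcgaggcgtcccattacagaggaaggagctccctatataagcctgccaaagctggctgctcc
Acta2 held 1 match to CAGAC, 235 bases before the start, and 1 to CATTCC, 146 bases before it. It also held 2 matches to this looser CArG box, 84 and 34 bases before the start, and the Postn and Tnc windows held none. Tnc held 1 match to CAGAC, 70 bases before the start, and the Postn window held none, but this order turned with the start chosen: at the upstream RefSeq start of each gene Postn held 1 and Tnc 0. CAGAC was in 42.2% and CATTCC in 12.6% of the 32851 mouse promoter windows of the same length. TGANTCA, the AP-1 element, was in 6.75% of all windows and in none of these 3, and the strict CArG box, with only A or T inside, was in 1.47% and likewise in none. The looser form, searched after the strict one gave no match here, was in 8.59%. Promoters were found for 7 of the 9 genes, and those of Fn1 and Tgfb3 are named only.

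Levels are given as FPKM after scaling of the libraries. FPKM divides by gene length, here all annotated exon bases of a gene together. This length can exceed that of the transcripts present, by an amount that differs between genes. Levels of different genes can therefore be compared only roughly. Acta2, α-smooth muscle actin, had the highest median over the 12 libraries, at 25.9 FPKM, and was above the next gene, Tgfbr2, in 11 of 12. Tgfbr2 had a median of 13.5, Fn1 8.03, Tgfbr1 5.79, Postn 5.09, Tgfb1 4.69, Tgfb3 3.75, Tnc 3.71 and Tgfb2 2.22 FPKM. The order was firm only at its top: Tgfbr2 exceeded Fn1 in 10 libraries and Fn1 exceeded Tgfbr1 in 9, whereas from Tgfbr1 down each gene exceeded the next in 6 or 7 of 12. Spread separated the roles more than level did. The highest library exceeded the lowest by 97.3-fold for Tnc, 18.0-fold for Acta2, 13.1-fold for Postn and 5.32-fold for Fn1. The same ratio was 3.55 for Tgfb1, 3.46 for Tgfb3, 2.32 for Tgfbr1, 2.26 for Tgfbr2 and 2.06 for Tgfb2.

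**Figure D1:**
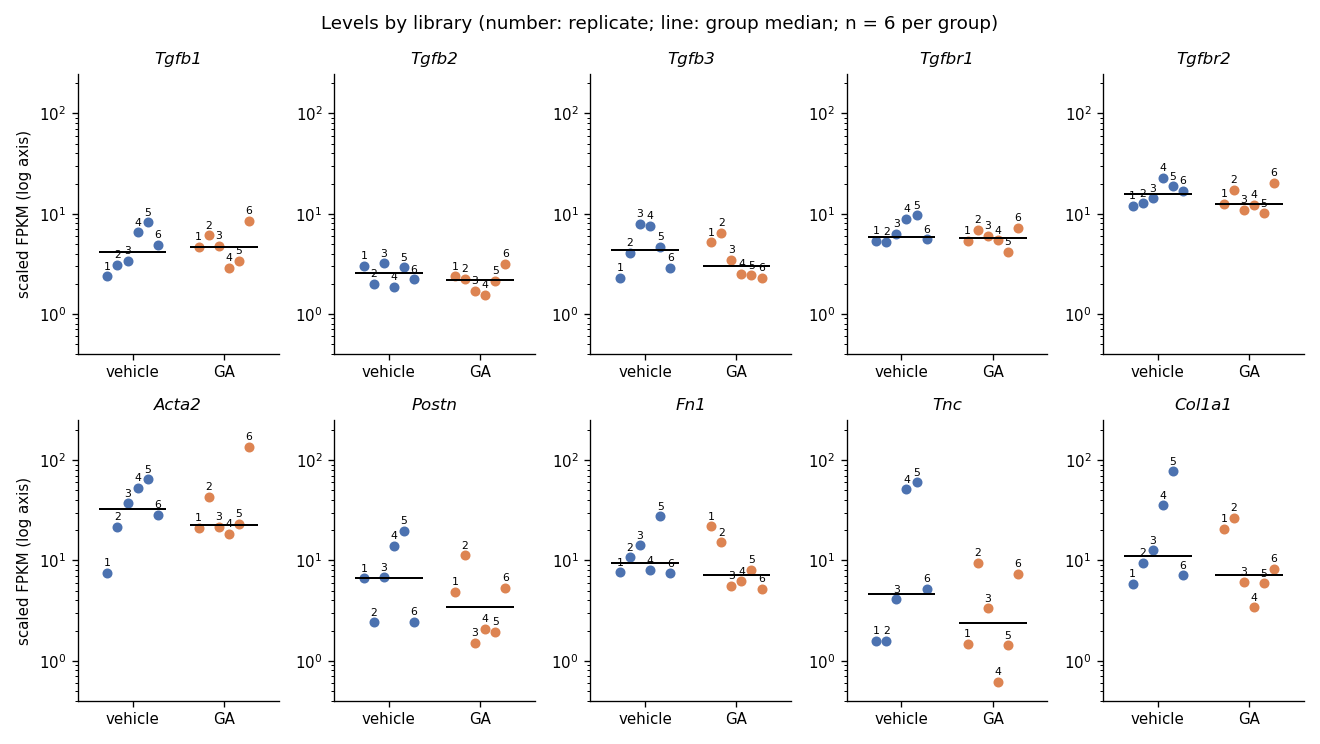
Scaled FPKM (log axis) of the 9 genes and Col1a1 in each library, with vehicle in blue and GA in orange, the replicate number at each point and a line at the group median. The groups overlap for every gene, and vehicle libraries 4 and 5 stand at 51.4 and 60.0 FPKM for Tnc, where the GA group reaches at most 9.51.

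Among the ligands, none was called. The test was limma on log2(scaled FPKM + 0.1), and a call needed a p below 0.1 after Benjamini-Hochberg adjustment and a log2 fold change of 0.58 or more in either direction. It called 0 of 9 members, and percent called over all 16847 genes was 0. Before adjustment, 364 genes (2.16% of those tested) and 0 members had a p below 0.05, and groups without overlap were seen for 11 genes (0.0653%) and 0 members. The adjusted p of every member was 1.00. Fold changes on this scale understate those of low genes.

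Tgfb1 (chromosome 7, 25687002 to 25705077), the ligand most tied to wound repair and immune control, ran from 2.38 to 8.19 FPKM with vehicle (median 4.13) and from 2.87 to 8.44 with GA (median 4.69). Both groups covered nearly the same range, with vehicle library 5 and GA library 6 at the top. The means were 4.74 ± 2.24 and 5.03 ± 2.02 FPKM (SD, n = 6 per group). This gave a log2 fold change of 0.12 (95% interval -0.57 to 0.82, exact two-sided permutation p = 0.729). Without vehicle library 1 or GA library 6 the sign turned, to -0.043 and -0.040.

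Tgfb2 (chromosome 1, 186622792 to 186705989) was the least abundant ligand and the least variable member. It ran from 1.87 to 3.19 FPKM with vehicle (median 2.56) and from 1.55 to 3.17 with GA (median 2.19), with the vehicle median above 5 of 6 GA libraries. Its log2 fold change was -0.20 (interval -0.62 to 0.22, exact permutation p = 0.307).

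Tgfb3 (chromosome 12, 86056745 to 86079041) ran from 2.30 to 7.95 FPKM with vehicle (median 4.38) and from 2.30 to 6.45 with GA (median 2.98). Vehicle libraries 3 and 4 and GA library 2 were highest. The log2 fold change was -0.36 (interval -1.12 to 0.39, exact permutation p = 0.349). Of its exon bases, 12.4% overlap genes on the opposite strand, and whether counting used the strand is not given in the sources used here.

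The share of each ligand in the sum of the 3 varied between libraries. These shares also depend on the exon lengths used, 5042 bases for Tgfb1, 5791 for Tgfb2 and 3383 for Tgfb3. Tgfb1 held a median of 41.3% of the sum, Tgfb3 35.5% and Tgfb2 21.9%. This order of medians held in only 5 of 12 libraries. Tgfb1 was the highest of the 3 in 6 libraries, Tgfb3 in 5 and Tgfb2 in 1, vehicle library 1, with 39.1%. Tgfb3 reached 54.7% in vehicle library 3, and Tgfb1 reached 60.7% in GA library 6, where Tgfb3 held 16.5%. The mean share of Tgfb1 was 38.3% ± 10.95 with vehicle and 45.3% ± 8.18 with GA, a gap below the SD within the vehicle group.

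The receptors were steadier than their ligands Tgfb1 and Tgfb3. Tgfbr1 (chromosome 4, 47353222 to 47414931), the signalling kinase, ran from 5.27 to 9.60 FPKM with vehicle (median 5.91) and from 4.15 to 7.24 with GA (median 5.71). Tgfbr2 (chromosome 9, 116084293 to 116175360), the ligand-binding kinase, ran from 12.01 to 22.7 with vehicle (median 15.6) and from 10.1 to 20.3 with GA (median 12.5). The highest library of each group was vehicle 5 and GA 6 for Tgfbr1 and vehicle 4 and GA 6 for Tgfbr2. The log2 fold change was -0.20 for Tgfbr1 (interval -0.60 to 0.21, exact permutation p = 0.327) and -0.23 for Tgfbr2 (interval -0.67 to 0.20, p = 0.292). A fall much beyond the fold limit of 0.58 lies outside both intervals, which come from the fit without a term for Y-linked reads. With that term the estimates were -0.29 for Tgfbr1 and -0.33 for Tgfbr2. Among the 7 libraries without such reads they were -0.32 and -0.38. Intervals for these settings are not given, so the limit on a fall does not extend to them.

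The stromal targets had much wider intervals. Tnc (chromosome 4, 63959785 to 64047015), which encodes tenascin-C of wound and tumor matrix, ran from 1.58 to 60.0 FPKM with vehicle (median 4.64) and from 0.617 to 9.51 with GA (median 2.39). Vehicle libraries 4 and 5 held 9303 and 10416 reads, and no other library held more than 1714. The means were 20.6 ± 27.3 and 3.96 ± 3.65 FPKM, a log2 fold change of -1.47 (SE 1.00, interval -3.64 to 0.69, exact permutation p = 0.221). Without vehicle library 4 it was -0.92 and without vehicle library 5 it was -0.88. With a term for Y-linked reads it was -2.23, and among the 7 libraries free of such reads it was -2.54, neither called. Those 7 hold only libraries 5 and 6 of the vehicle group, and vehicle library 5 had the highest Tnc of all.

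Postn (chromosome 3, 54361109 to 54391037), the matrix protein periostin, ran from 2.41 to 19.8 FPKM with vehicle (median 6.71) and from 1.51 to 11.2 with GA (median 3.47). Vehicle libraries 4 and 5 and GA library 2 were highest, and 5 of 6 GA libraries lay below the vehicle median. The log2 fold change was -0.87 (SE 0.60, interval -2.18 to 0.43, exact permutation p = 0.225), and -0.55 without vehicle library 5. Postn and Tnc were the members past the fold limit, as were 8.54% of all genes.

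Fn1 (chromosome 1, 71585520 to 71653200), fibronectin, ran from 7.45 to 27.6 FPKM with vehicle (median 9.35) and from 5.19 to 21.9 with GA (median 7.13). It was highest in vehicle library 5 and GA library 1, and vehicle library 4, so high for Tnc, had only 7.998 FPKM. The log2 fold change was -0.33 (interval -1.21 to 0.56, exact permutation p = 0.489), -0.066 without vehicle library 5, and -0.95 among the 7 libraries that lacked Y-linked reads.

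Acta2 (chromosome 19, 34241090 to 34255590) ran from 7.56 to 64.7 FPKM with vehicle (median 32.9) and from 18.5 to 136.1 with GA (median 22.3). GA library 6 stood alone at 136.1 FPKM, from 7730 reads, while the other 5 GA libraries reached at most 42.9. The log2 fold change was 0.16 (SE 0.57, interval -1.08 to 1.39, exact permutation p = 0.823), and the sign turned without vehicle library 1 (-0.23) or GA library 6 (-0.26). The 15 smooth muscle and pericyte markers, of which 14 were tested, had a mean log2 level of 1.39 in GA library 6. This was within the 1.37 to 1.75 of that group, but single markers differed. Actg2 (2.89 FPKM) and Notch3 (24.4 FPKM), chosen after their values were seen, were higher there than in any other library, whereas Myh11 (1.43 FPKM) and Cnn1 (0.310 FPKM) were the lowest of the GA group. The part of smooth muscle in the level of Acta2 was not tested. In bulk tissue, fewer cells of a type and less RNA per cell cannot be told apart.

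**Figure D2:**
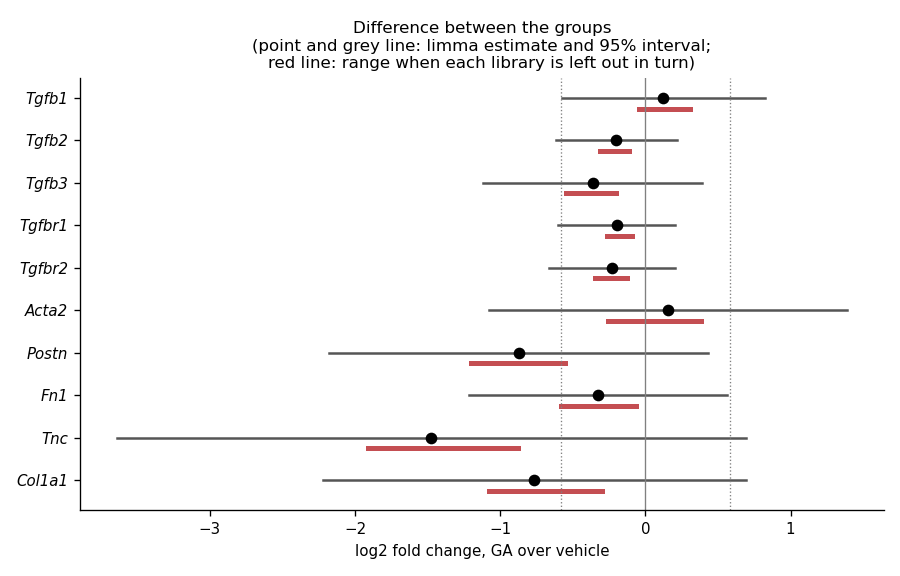
Log2 fold change of GA over vehicle for each gene, with the limma estimate as a point, its 95% interval as a grey line and the range over the 12 fits that each leave out 1 library as a red line. All 10 intervals include 0 (solid line), the dotted lines mark ±0.58, and only the leave-one-out ranges of Tgfb1 and Acta2 cross 0.

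Across the 9 genes, 7 had lower estimates with GA, and the median log2 fold change was -0.23. Over all tested genes 49.1% were lower and the median was 0.0042. With a term for Y-linked reads, and also among the 7 libraries lacking such reads, 9 of 9 had lower estimates and 0 were called. In those 7 the vehicle group is libraries 5 and 6 only. The members are correlated with each other, so their directions are not separate observations.

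Each member was next compared over the 12 libraries with Col1a1, the α1 chain of type I collagen and the main product of activated fibroblasts. Col1a1 itself ran from 5.87 to 77.9 FPKM with vehicle (median 11.04) and from 3.41 to 26.8 with GA (median 7.17), with a log2 fold change of -0.76 (SE 0.67, exact permutation p = 0.342). Vehicle libraries 4 and 5 and GA libraries 1 and 2 were highest. A two-sided permutation test with 100000 resamples was run for every gene. A positive r at p below 0.05 was found for 7 of 9 members, against 1381 of 16846 other genes (8.2%). After adjustment over all genes, 238 genes (1.41%) and 1 member, Postn, had a positive r with an adjusted p below 0.05.

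Postn had r = 0.85 with Col1a1 (p = 0.00044, adjusted p = 0.0374, rho = 0.76, p = 0.00656), and 1.16% of genes had an r as high. Without vehicle libraries 4 and 5, the 2 farthest from the median of Col1a1, its r was 0.69. Within the 6 vehicle libraries r was 0.83 and within the 6 GA libraries 0.85 (exact permutation p = 0.0528 and 0.0319).

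Tnc followed with r = 0.82 (p = 0.00121, adjusted p = 0.0669, rho = 0.76, p = 0.00559). Without vehicle libraries 4 and 5 its r was 0.53 (permutation p = 0.118), from fewer libraries over a narrower range of Col1a1. With only library 4 or only library 5 of vehicle left out, r was 0.80 or 0.72. It was 0.92 within vehicle and 0.57 within GA (exact permutation p = 0.0181 and 0.242).

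Fn1 (r = 0.77, p = 0.00351, adjusted p = 0.116, rho = 0.69, p = 0.0173) and Tgfb3 (r = 0.72, p = 0.00908, adjusted p = 0.181, rho = 0.76, p = 0.00605) did not rest on them. Without these libraries r was 0.83 for Fn1 (permutation p = 0.00282) and 0.79 for Tgfb3 (p = 0.00576). For Fn1 it was 0.62 without vehicle library 5 alone, and 0.53 without the 3 libraries with high Lipf (permutation p = 0.149). Within vehicle and GA r was 0.71 and 0.83 for Fn1, and 0.56 and 0.88 for Tgfb3.

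Tgfbr1 had r = 0.77 (permutation p = 0.00303, adjusted p = 0.108, rho = 0.66, p = 0.0242). Tgfb1 had r = 0.66 (permutation p = 0.0190, adjusted p = 0.250, rho = 0.64, p = 0.0293). Tgfbr2 had r = 0.63 (permutation p = 0.0297, adjusted p = 0.301, rho = 0.73, p = 0.00841). Their r was lower without vehicle libraries 4 and 5, at 0.41, 0.44 and 0.39 (permutation p = 0.239, 0.203 and 0.272). Tgfbr1 had r = 0.97 within vehicle and 0.37 within GA, Tgfb1 0.87 and 0.53, and Tgfbr2 0.73 and 0.43. Whether these pairs of values differ between the groups was not tested.

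Acta2 and Tgfb2 missed the threshold. Acta2 had r = 0.50 (p = 0.0960, adjusted p = 0.469) with rho = 0.65 (p = 0.0259), and GA library 6, the highest for Acta2, had only 8.24 FPKM of Col1a1. Tgfb2 had r = 0.28 (p = 0.373, adjusted p = 0.758, rho = 0.28, p = 0.382), and 22.9% of genes had an r as high.

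**Figure D3:**
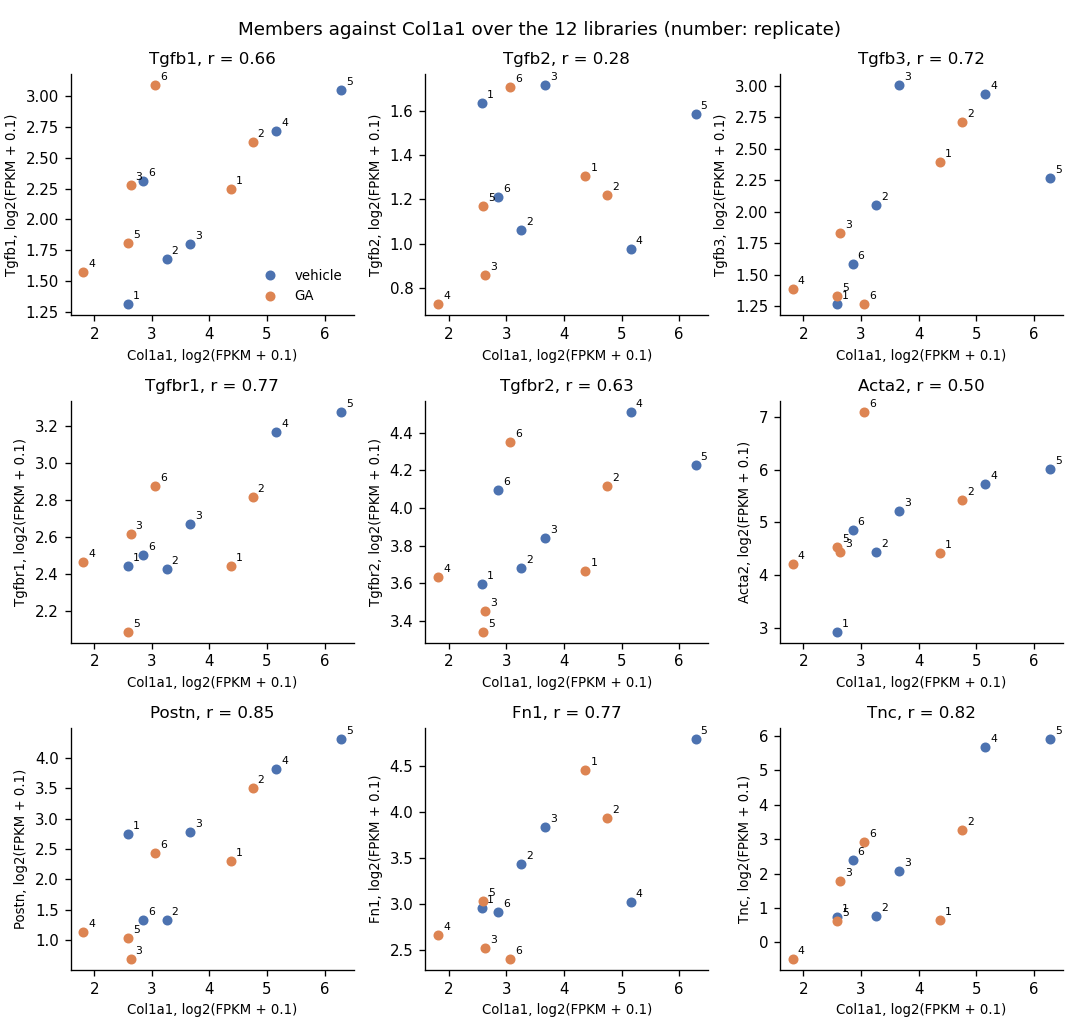
Log2(scaled FPKM + 0.1) of each member against that of Col1a1 over the 12 libraries, with vehicle in blue, GA in orange and the replicate number at each point. Postn (r = 0.85) and Tnc (r = 0.82) rise with Col1a1 up to vehicle libraries 4 and 5, Tgfb2 (r = 0.28) does not, and GA library 6 lies above the other points for Acta2 and Tgfb1.

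Relative to Col1a1, no member differed between the groups at an exact permutation p below 0.05. The log2 ratio of Acta2 to Col1a1 was 0.90 ± 0.83 with vehicle and 1.82 ± 1.39 with GA, a difference of 0.92 (exact permutation p = 0.195). The ratio of Tgfb1 was 0.89 higher with GA (exact permutation p = 0.132), that of Tnc was lower, at -0.71 (p = 0.323), and that of Postn differed by -0.11 (p = 0.807).

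The members did not form a single block. All 36 pairs had a positive r over the 12 libraries, with a median of 0.51, and 11 reached 0.7, given here as a description of values that share libraries and scaling. The receptors went with Tnc, at r = 0.91 for Tgfbr1 and 0.83 for Tgfbr2, and with each other at 0.84. Tgfb1 went with Acta2 (0.87), Tnc (0.81) and both receptors (0.77 each). Fn1 stood outside this set, with r of 0.22 to Tgfb1, 0.30 to Tgfbr1, 0.14 to Tgfbr2, 0.10 to Acta2 and 0.32 to Tnc, and its higher values were 0.61 to Tgfb3 and 0.59 to Postn. The lowest pair was Tgfb2 with Tgfb3, at 0.056.

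**Figure D4:**
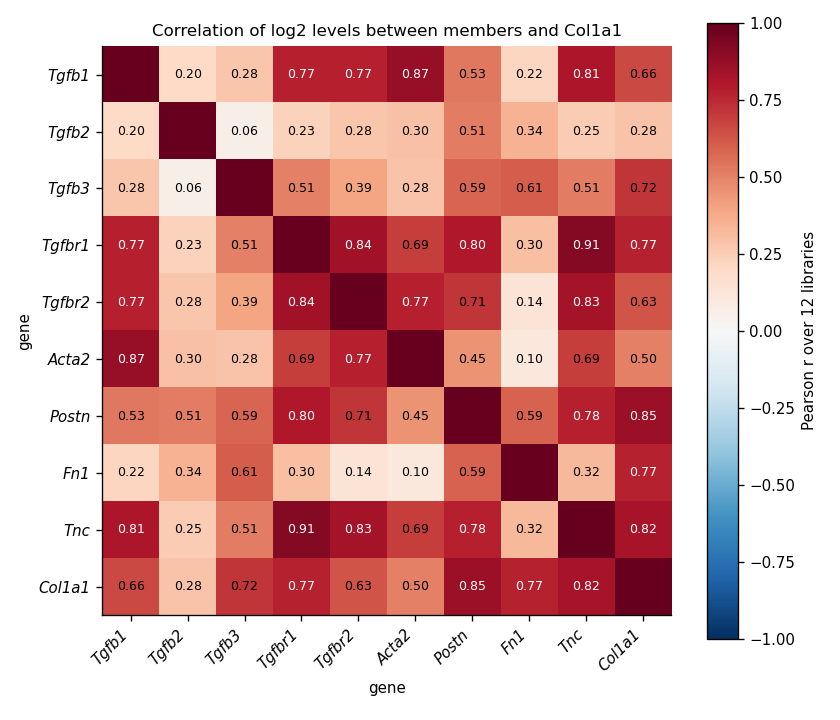
Pearson r of log2 levels over the 12 libraries for each pair of the 9 members and Col1a1, coloured from blue (-1) to red (1). Tgfb1, Tgfbr1, Tgfbr2 and Tnc share r of 0.77 to 0.91, while the row of Fn1 is pale except for Tgfb3 (0.61), Postn (0.59) and Col1a1 (0.77).

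The genes most like each member, by Pearson r over the 12 libraries restricted to genes averaging 1 FPKM or more, differed from member to member. For Tnc they were Mmp10 (r = 0.98), Cd14 (0.97) and Galnt1 (0.97). For Tgfbr1 they were Smim3 (0.96), Plaur (0.95) and Mmp13 (0.95), and for Tgfbr2 Cndp2 (0.97), Fads3 (0.96) and Tnfaip3 (0.96). For Fn1 they were Csf1r, the growth factor receptor of macrophages (0.94), Serpinf1 (0.93) and the lysozyme gene Lyz2 (0.92). For Postn they were Ttc9 (0.94), Cxcl14 (0.93) and Syk (0.91), and for Acta2 Pdlim7 (0.97), Capn2 (0.96) and Man1a (0.96). Tgfb1 was most like Leprot (0.96), Tmsb10 and Igsf8 (0.95 each), Tgfb3 like Slco3a1 (0.94), Zbed3 (0.90) and Csf1 (0.87), and Tgfb2 like Mapre2 (0.83), Stard10 (0.81) and Nav2 (0.79). For Col1a1 they were Lilrb4b (0.99), Col5a1 (0.98) and Plek (0.97).

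Leukocyte markers moved with several members. The mean log2 level of 10 neutrophil markers ran from 0.76 to 4.94 with vehicle and from 0.55 to 3.48 with GA, highest in vehicle libraries 5 and 4 and GA library 2, and none of the 10 was at 0 in all libraries. Its r was 0.92 with Col1a1, 0.90 with Tnc, 0.88 with Tgfbr1, 0.84 with Postn and 0.73 with Tgfbr2. The rho was 0.95 with Col1a1 and 0.79 with Tnc, and without the 2 libraries farthest from the median of the list r was 0.80 and 0.63. These are descriptions, picked from many pairings of marker lists with the 10 genes. With this list as a term in the correlation, r with Col1a1 was -0.22 for Tgfbr1, -0.18 for Tgfbr2, -0.0094 for Tnc and 0.36 for Postn. In that setting 1 of 9 members kept a permutation p below 0.05, Fn1 at r = 0.78 (p = 0.00393). As the list had r = 0.92 with Col1a1 itself, the term leaves little variation of Col1a1 to follow. A lower r under it therefore does not measure the part of neutrophils. With the list as a term in limma, the log2 fold change was -0.32 for Tnc and -0.23 for Postn.

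Fn1 instead went with the 10 macrophage markers, at r = 0.90 (rho = 0.85, r = 0.84 without the 2 libraries farthest from that list's median), while Tnc had r = 0.34 with them. The macrophage list ran from 0.76 to 2.77 with vehicle and from 0.74 to 2.87 with GA. The platelet list averaged 6 markers, 4 of which passed the filter for testing. Its mean log2 level had r = 0.91 with Col1a1, 0.84 with Fn1 and 0.82 with Postn. The tested markers differed: r with Col1a1 was 0.86 for Pf4 and for Ppbp, -0.18 for Itga2b and -0.094 for Gp1ba. Without the 3 libraries with high Lipf, 3 of 9 members had an r with Col1a1 at p below 0.05, namely Tgfb3 (0.89), Postn (0.73) and Tnc (0.69). The part of these cells and glands in the members' levels was not tested.

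**Figure D5:**
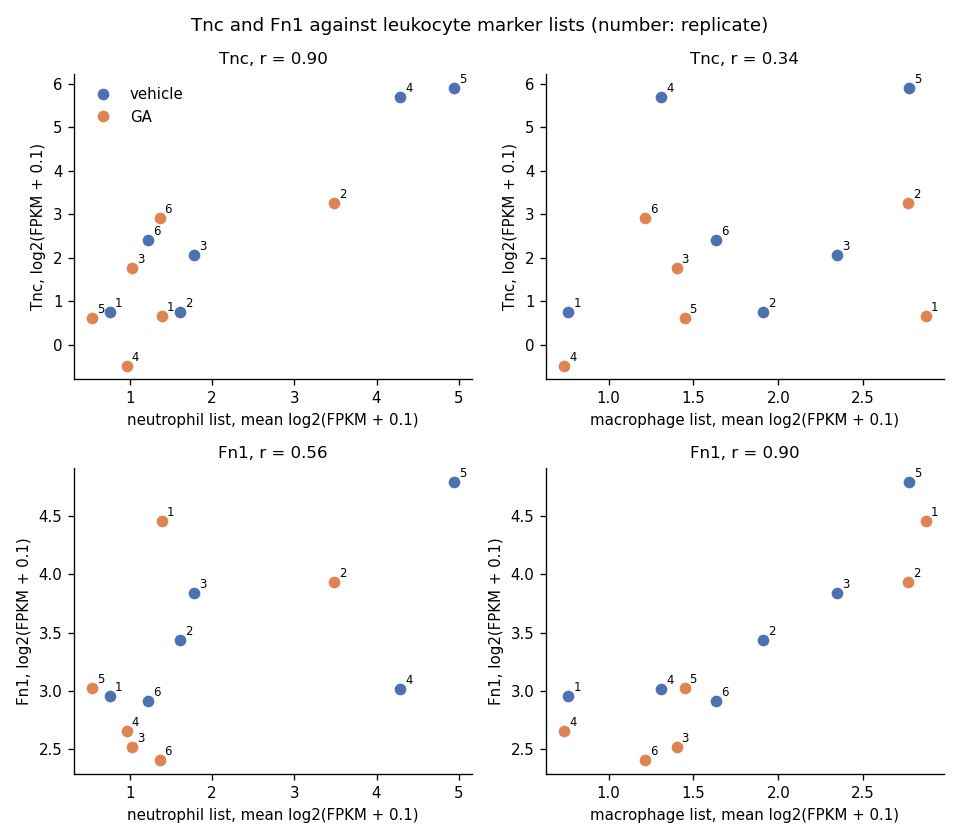
Log2(scaled FPKM + 0.1) of Tnc (top) and Fn1 (bottom) against the mean log2 level of the neutrophil list (left) and the macrophage list (right), with vehicle in blue, GA in orange and the replicate number at each point. Tnc goes with the neutrophil list (r = 0.90) and less with the macrophage list (r = 0.34), and Fn1 the other way round (r = 0.56 and 0.90).

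Other genes of the pathway were described by list, and none was called in any list. Of 13 genes for ligand activation and latency, 2 had higher and 11 lower estimates with GA. The median log2 fold change was -0.18, and their median r with Col1a1 was 0.56. Ltbp2, a latent TGF-β binding protein, had -1.24 (SE 0.45, exact permutation p = 0.0238, adjusted p = 1.00 in limma), from 0.633 ± 0.522 FPKM with vehicle to 0.194 ± 0.186 with GA, and 5 of 6 GA libraries lay below the vehicle median. Thbs1, thrombospondin 1, had -1.13 (SE 0.92), and the protease gene Furin -0.24 (SE 0.19).

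Of 16 genes for signal transduction and its inhibitors, 6 were higher and 10 lower, with a median of -0.054 and a median r with Col1a1 of 0.12. Ski, a corepressor of SMAD proteins, was at 27.2 ± 3.16 FPKM with vehicle and 22.8 ± 2.81 with GA, a log2 fold change of -0.26 (SE 0.11, exact permutation p = 0.0152, adjusted p = 1.00 in limma), and 6 of 6 GA libraries lay below the vehicle median. Its relative Skil had -0.25 (SE 0.23) and the ubiquitin ligase gene Smurf1 -0.24 (SE 0.20).

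Of 19 TGF-β target genes, Col1a1 included, 3 were higher and 16 lower, with a median of -0.25. Timp3, an inhibitor of matrix proteases, had 0.36 (SE 0.26), and Ltbp2 and Col1a1 were the other 2 with the smallest p. Of 24 other activated fibroblast genes, 4 were higher and 20 lower, with a median of -0.32, and their median r with Col1a1 was 0.83 against -0.039 over all genes. A high median r was not particular to this list. It was 0.86 for neutrophil, 0.70 for macrophage and 0.61 for gland markers. For resting fibroblast genes it was 0.45, for endothelial markers 0.43 and for epithelium markers -0.094. Tnn, tenascin-N, had -1.68 (SE 0.74, exact permutation p = 0.0693, 6 of 6 GA libraries below the vehicle median). Its level was low, at 0.936 ± 0.946 FPKM with vehicle and 0.168 ± 0.273 with GA. The GA median of 0.0595 FPKM lay below the 0.1 added before the log. Grem1, a BMP antagonist, had -1.57 (SE 0.82), and Pdpn, podoplanin, -0.94 (SE 0.49).

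Of 14 resting fibroblast genes, 9 were higher and 5 lower, with a median of 0.11. The smallest p-values were those of Col15a1 at -0.78 (SE 0.55), Sfrp1 at -0.45 (SE 0.34) and Apod at 0.47 (SE 0.39). Of 10 receptors of fibronectin, periostin and tenascin, 3 were higher and 7 lower, with a median of -0.080, and Itga8 had 0.47 (SE 0.33), Itgb5 -0.22 (SE 0.16) and Itgav -0.22 (SE 0.18).

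Markers of other cell types gave the setting. Of 14 smooth muscle and pericyte markers 11 were higher with GA (median 0.25), of 9 endothelial markers 9 (0.16), of 11 skeletal muscle markers 8 (0.49) and of 8 T cell markers 6 (0.049). Of 10 neutrophil markers 0 were higher (median -0.82), of 10 gland markers 0 (-1.46), of 12 epithelium markers 1 (-0.21), of 10 macrophage markers 4 (-0.080) and of 4 platelet markers 1 (-0.28). No gene of these lists was called, and 0 had an unadjusted p below 0.05.

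The genes of these lists with the smallest p are given with no call. For smooth muscle and pericytes the log2 fold changes were 0.57 for Synpo2, 0.61 for Actg2 and 0.36 for Rgs5, and for endothelium 0.36 for Vwf, 0.39 for Tek and 0.35 for Cldn5. For neutrophils they were -0.50 for Il1r2, -0.76 for S100a8 and -1.80 for Clec4d, for macrophages -0.42 for C1qa, 0.39 for Cd163 and -0.34 for C1qc, and for platelets -0.24 for Itga2b, 0.25 for Gp1ba and -0.68 for Ppbp. For epithelium they were -0.66 for Krt16, -0.46 for Sprr1b and -0.63 for Krt14, and for glands -1.45 for Aqp5, -1.58 for Dcpp2 and -1.95 for Muc5b. For skeletal muscle they were 0.75 for Myh4, -1.19 for Myh2 and 0.63 for Atp2a1, and for T cells 0.55 for Cd2, 0.40 for Cd3e and -0.51 for Cd3d. Clec4d, the neutrophil marker with the lowest estimate, had r = 0.94 with Col1a1, whereas S100a8 had 0.19 and Il1r2 0.057.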

How the data were processed

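Libraries were made from total RNA of tongue tissue with a SMARTer mRNA-Seq kit, per the labels. Per the methods, HISAT2 placed the reads on mm10 and featureCounts counted those with a single place. The authors deposited FPKM values, in which reads are divided by gene length and library total, in 1 table per library. No count table was used, so limma replaced the count test of the study, with its limits kept. Rows without a gene name (22965 of 55463, 41.4%) were left out. Library totals were recovered from low FPKM values and GENCODE M21 exon lengths (29222 of 32498 names matched), and 97.7% to 98.3% of values worth 1 to 8 reads came out whole within 0.02. In this step the exon length had to be reduced by an amount proportional to the library total, a feature of the deposited values that changes the members little. FPKM was scaled by an unweighted trimmed mean of log ratios (30% and 5% trimmed, factors 0.914 to 1.08), and genes averaging 0.1 FPKM or more were tested on log2(FPKM + 0.1), with limma 3.58.1 in R 4.3.3. Permutation tests used numpy 2.4.6. With 6 against 6 libraries the smallest exact p is 0.00216.

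The members and gene lists were chosen with earlier results of these data known. Named genes are the members, Col1a1, the 3 genes of each list with the smallest p, and the 3 genes most like each member. A marker list and the genes it would name are not reported here. Within a group libraries correlated at a Spearman rho of 0.888 to 0.971. Alternatives varied the pseudocount, filter, scaling, test, covariates and libraries used. Promoter sequences are from RefSeq (GRCm38.p6), and coordinates of genes are from GENCODE M21 (GRCm38). Fold changes, p-values and gene sets of the study were not used.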

Additional observations from a re-analysis of the deposited data

Results flagged for a closer look

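In 64 sets of 6 libraries (levels, ratios to Col1a1 and ligand shares in each group), the highest or lowest library was compared with its neighbour by Dixon's gap ratio. On the log2 scale, for ratios and for shares, 0 of 44 sets had a library standing apart. The linear FPKM scale was added after the data were seen, and there 2 of 20 sets did. Acta2 in GA library 6 had a gap of 0.793 of the group's range, and Fn1 in vehicle library 5 a gap of 0.665. For normal values chance sets apart about 1 group in 20. Over all sets the share was 3.13%, but both cases lay on the linear scale, where values need not be normal. The sets also share libraries, so the shares are given as a description.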

How the results depend on the processing

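Every member rested on at least 111 reads in each library. Members called stayed at 0 under all 30 alternatives. Over all genes the count was 2 among the 7 libraries without Y-linked reads (Gm25290 and Gm23390, named after their values were seen), 0 to 1 when each library was left out (1, Gm25290, without vehicle library 4), and 179 at an unadjusted p below 0.05 with the fold limit. Of 261 log2 fold changes of members, 251 kept their sign. Leaving out 1 library gave -0.043 to 0.31 for Tgfb1 and -0.26 to 0.39 for Acta2. Tgfb1 turned to -0.13 with a term for Y-linked reads, -0.41 in the 7 libraries without them, -0.043 without vehicle replicate 1 and -0.040 without GA replicate 6. Acta2 turned to -0.25, -0.29, -0.23 and -0.26 in the same 4 settings. The Y-linked settings enlarged some other estimates. Tnc went from -1.47 to -2.23 with the term and -2.54 in the 7 libraries. In those 7 Fn1 went from -0.33 to -0.95 and Col1a1 from -0.76 to -1.60. Only vehicle libraries 5 and 6 are among them, and vehicle library 5 was the highest of all for Tnc, Fn1 and Col1a1. With the neutrophil term Tgfbr1 turned to 0.0011 and Col1a1 to 0.043, and with a Col1a1 term Fn1 turned to 0.023. The count of members with an r to Col1a1 at p below 0.05 was 7, and it was 1 with the neutrophil term and 3 without the high-Lipf libraries. The r of Tgfbr1, Tgfbr2 and Tnc turned to -0.22, -0.18 and -0.0094 with the neutrophil term, which leaves little variation of Col1a1. Of 225 such values of r, 200 kept sign and side. The count of ratios to Col1a1 differing at p below 0.05 was 0, and 1 with the Y-linked term (Tnc, -1.45, p = 0.0475 by permutation of residuals). Leaving out 1 library gave ratios of -0.047 to 0.62 for Tgfb3 and -0.26 to 0.17 for Postn. The ratio of Tgfb3 turned to -0.047 without vehicle replicate 5, and that of Postn to 0.17, 0.033 and 0.0094 without vehicle replicate 1, GA replicate 1 or GA replicate 3. The causes were not tested.

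Replicate numbers are shared between the groups, and whether they mark pairs was not established. Deviations of same-numbered libraries correlated at -0.372 to 0.0798, and 0 of 6 matched best with their own number. With 6 numbers this check is too small to settle the question. With a replicate block 0 genes were called, and Acta2 had r = 0.78 with Col1a1. There 8 members had an r to Col1a1 at p below 0.05 by permutation of 12 residuals. Residuals of same-numbered libraries mirror each other in that setting. Its p-values are therefore too small, and the 8 cannot be compared with the 7 found without a block.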
